A study of Mus musculus with 27 samples.

Results

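The highest dose of TCDD was compared with vehicle in the mouse colon. TCDD (tetrachlorodibenzo-p-dioxin) is a persistent dioxin that binds the aryl hydrocarbon receptor (AhR). The comparison holds 6 of the 27 libraries of the series, namely the 3 labelled with a dose of 30 μg/kg (mice 65, 66 and 67) and the 3 labelled with a dose of 0 (mice 2, 3 and 4). All 27 were male C57BL/6 mice that were gavaged with sesame oil or with TCDD in sesame oil every 4 days, 7 gavages in all, from an age of 28 days, and were 56 days old when the tissue was taken on day 28. Between vehicle and 30 μg/kg the series has 7 lower doses with 3 mice each, and these serve here as a frame for the spread and for a comparison with 3 μg/kg. RNA came from scrapings labelled as colonic epithelium, so each library is 1 mouse and holds every cell that came off with the blade. The paper places the harvest between zeitgeber time 0 and 3, at the start of the light phase.

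Without ligand the AhR rests in the cytosol with its chaperones. Once bound, it enters the nucleus, pairs with ARNT and binds dioxin response elements, whose core is GCGTG, near genes that oxidize and conjugate foreign compounds, among them its own repressor. The colonic epithelium is renewed from stem cells at the base of the crypt. They give rise to absorptive colonocytes, mucus-filled goblet cells, hormone-secreting enteroendocrine cells and chemosensory tuft cells.

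Gene counts ran from 9416898 to 10423536 per vehicle mouse and from 11534463 to 13887966 per mouse at 30 μg/kg. Reads with more than 1 alignment made up 34.6 to 35.6% of the vehicle tables and 30.7 to 32.7% of those at 30 μg/kg, and the 10 most abundant genes held 16.5 to 18.1% and 13.9 to 16.3% of the gene counts. Epithelial genes were abundant in all 6 mice, with the goblet cell mucin Muc2 at 31200 to 40000 CPM (counts scaled to a common library size) and the colonocyte carbonic anhydrase Car1 at 3130 to 4790 CPM. Genes of other tissues were read as well. Their summed levels were 575 to 2000 CPM for smooth muscle, 430 to 1572 CPM for adipocyte and 596 to 6128 CPM for pancreatic acinar genes. The libraries carried 16 index barcodes that were used again in a second set, and the sets followed dose. The 16 mice from vehicle to 0.3 μg/kg with 1 mouse at 1 μg/kg were in set 1, and the other 11, with all at 3, 10 and 30 μg/kg, were in set 2. Vehicle and 30 μg/kg therefore lie wholly in different sets, and the index set and the dose cannot be told apart in their direct comparison. Many of the results are for this reason also given against 3 μg/kg, which shares the set with 30 μg/kg but was itself treated, and in a fit where the index set is a term of the model, a term that only the 3 mice at 1 μg/kg can set.

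Of 16496 genes tested, 1016 passed an adjusted p under 0.05 in edgeR's quasi-likelihood test with a fold change of at least 1.5, and these are called here. At 30 μg/kg 486 were higher (2.95% of genes tested) and 530 were lower (3.21%). The median log2 fold change of all genes was -0.002. In 960 of the called genes the 3 mice at 30 μg/kg lay wholly outside the range of the 3 vehicle mice, against 2385 genes of all tested that lay wholly above it (14.5%) and 2512 wholly below it (15.2%). A wider frame is the range of the 15 mice from vehicle to 0.3 μg/kg, and 226 called genes lay above all 15 and 217 below all 15, against 623 (3.78%) and 436 (2.64%) of all genes tested. The called changes were mostly under 4-fold, with 102 rises and 51 falls of 4-fold or more. The highest of the 3 treated mice was mouse 67 for 247 of the 486 rises, mouse 66 for 162 and mouse 65 for 77. Counts of calls depended on single mice, with 590 without vehicle mouse 2, 664 without vehicle mouse 4 and 616 without mouse 67. Of the 167 called genes named in the text, 91 were called whichever of the 6 mice was left out. Of the others, Bbc3, Best2, Srm and St8sia5 lost the call with each of the 6 left out. Adm, Apoe, Bmp5, Cpe, Dcn, Gadd45g, Mpeg1, Oas3, Psat1, Retnlb, Scg2, Slc30a10, Tsc22d3 and Ugt1a6b lost it with 5 of the 6. Alpi, Anpep, Atoh1, C1qc, Cbs, Clps, Cxcl16, Ereg, Fabp4, Fads1, Jam3, Lct, Myl9, Nkd1, Reg3a and Tff2 lost it with 4. Acaa2, Apoa1, Ccl20, Chrdl1, Clock, Dgat2, Fabp1, Hpgds, Hspb1, Ifi27l2a, Itln1, Kyat1, Plin4, Slc11a2, Slc16a3 and Tpm2 lost it with 3. Within index set 2, 36 genes were higher at 30 than at 3 μg/kg (0.218%) and 40 were lower (0.242%). Once the index set was entered as a term, 355 genes were called higher against vehicle (2.15%) and 376 lower (2.28%).

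The genes were grouped into 59 lists of pathways and cell types, which held 1222 tested members, of which 126 were called higher and 70 lower. Some genes stand in more than 1 list. Lists with many called rises were those of AhR targets, the E-box and D-box arm of the clock, genes of small intestinal enterocytes and genes of the tissue beneath the epithelium. Lists with many called falls were those of tuft cell genes, mitosis genes, antimicrobial proteins and the BMAL1 arm of the clock.

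**Figure D1:**
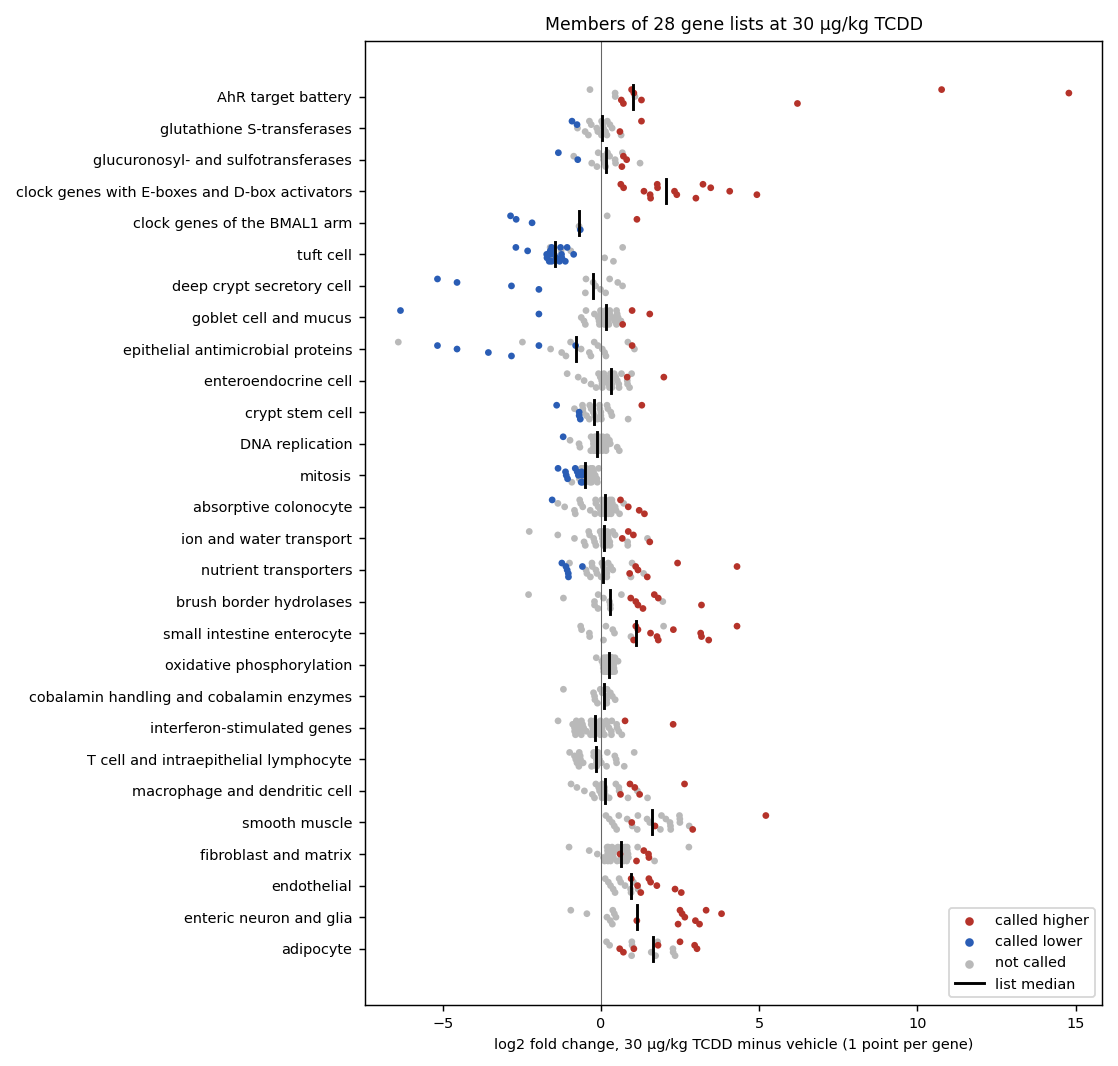
Log2 fold change at 30 μg/kg TCDD minus vehicle (x axis, no unit) for the tested members of 28 of the 59 lists, with 1 point per gene, called genes coloured and a bar at each list's median. Tuft cell genes lie mostly to the left with a median of -1.45, and the clock genes with E-boxes lie wholly to the right with a median of 2.05; fitted values of genes near 0 counts in 1 group, such as Cyp1a1, depend on the prior count.

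The AhR battery was tested first, as the check that the labelled dose reached the colon. Of its 18 genes 12 had enough counts to be tested, 8 of these were called higher (66.7%, against 2.95% of all genes) and none lower, and the median log2 fold change was 1.00. Cyp1a1 (ENSMUSG00000032315), the monooxygenase that serves as the standard marker of AhR activation, was at 0.0984, 0 and 0.0982 CPM in vehicle mice 2, 3 and 4 and at 2110, 2430 and 2070 CPM in mice 65, 66 and 67. Vehicle libraries thus held almost no Cyp1a1 read, while it was among the abundant transcripts in every treated mouse. From 2 counts in all vehicle mice and 82279 at 30 μg/kg the ratio was 33000, with an exact 95% counting interval of 9150 to 273000 that covers counting error only.

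Cyp1b1, the related monooxygenase, was at 0.197, 0.105 and 0.0982 CPM in the vehicle mice and at 246, 286 and 224 CPM at 30 μg/kg (log2 fold change 10.77 ± 0.39 SE, adjusted p = 2.74e-15). Ahrr, the repressor that the receptor induces against itself, was at 1.67, 1.48 and 2.16 CPM and at 139, 148 and 109 CPM (6.21 ± 0.23, adjusted p = 4.79e-15). Tiparp, an ADP-ribosyltransferase that also restrains the receptor, was at 33, 25 and 24 CPM and at 62.3, 57.2 and 48.7 CPM (1.04 ± 0.16, adjusted p = 0.000184). None of these groups overlapped, and the treated mice also lay above all 15 mice up to 0.3 μg/kg.

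The conjugating and redox genes of the battery rose less. Nqo1, the quinone reductase, was at 39.8, 61.7 and 55.2 CPM and at 90.7, 125 and 89.9 CPM (0.97 ± 0.23, adjusted p = 0.00929), and was not called without vehicle mouse 2 or without mouse 66. The glutathione transferase Gsta1 rose by 1.28, the glucuronosyltransferase Ugt1a6b by 0.71 and the oxidant-response factor Nfe2l2 by 0.64 on the log2 scale, with adjusted p of 0.00748, 0.0265 and 0.000941, and all of them lost the call without vehicle mouse 2, Gsta1 also without mouse 66, and Ugt1a6b with any mouse other than 65 left out. The other 4 tested members were not called. They were Cyp2s1 with a log2 fold change of 0.45 (adjusted p = 0.0183, under the fold threshold), Ugt1a6a with 0.45 (adjusted p = 0.21), the tryptophan-degrading enzyme Ido1 with 1.07 (adjusted p = 0.112) and Lpcat2 with -0.35 (adjusted p = 0.131). Ugt1a6a and Ugt1a6b share exons, and the counting could split their reads. Of the 6 members too low to test, the liver-type monooxygenase Cyp1a2 had 0 counts over the vehicle mice and 15 at 30 μg/kg.

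Of the 12 genes 4 were also higher at 30 than at 3 μg/kg, within index set 2. The log2 fold changes of this comparison were 4.73 for Cyp1a1 (adjusted p = 1.05e-10), 6.99 for Cyp1b1 (4.49e-14), 4.48 for Ahrr (3.26e-13) and 1.19 for Tiparp (0.000161). With the index term 4 members were called, and Tiparp, at 0.36 with an adjusted p of 0.417, was not among them. Without vehicle mouse 2, 4 members were called in place of 8, and without mouse 66, 5. The receptor itself did not pass: Ahr was at 26.4, 24.0 and 28.1 CPM in vehicle mice and at 32.2, 27.7 and 27.9 CPM at 30 μg/kg (log2 fold change 0.16, adjusted p = 0.455), and its partner Arnt had a log2 fold change of -0.07 (adjusted p = 0.537).

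The sequences just before the start sites of the 4 genes that were also higher than at 3 μg/kg are shown because the receptor's core letters can be read in them. They are the 250 bases before each start in RefSeq (GRCm38.p6), read along the gene, with GCGTG, or CACGC where it lies on the other strand, in capitals. Cyp1a1 is at chr9:57697363-57697612 on the plus strand, Cyp1b1 at chr17:79715062-79715311 on the minus strand, Ahrr at chr13:74292332-74292581 on the minus strand and Tiparp at chr3:65528197-65528446 on the plus strand.
Cyp1a1: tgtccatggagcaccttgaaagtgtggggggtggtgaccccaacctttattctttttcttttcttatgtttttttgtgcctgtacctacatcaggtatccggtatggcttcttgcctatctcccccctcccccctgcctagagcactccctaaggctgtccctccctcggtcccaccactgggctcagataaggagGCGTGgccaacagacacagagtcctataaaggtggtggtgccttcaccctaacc
Cyp1b1: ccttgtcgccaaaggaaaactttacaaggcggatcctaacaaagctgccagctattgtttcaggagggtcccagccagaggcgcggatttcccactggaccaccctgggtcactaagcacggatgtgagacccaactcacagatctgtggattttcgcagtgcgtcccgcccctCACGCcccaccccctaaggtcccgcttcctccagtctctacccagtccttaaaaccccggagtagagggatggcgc
Ahrr: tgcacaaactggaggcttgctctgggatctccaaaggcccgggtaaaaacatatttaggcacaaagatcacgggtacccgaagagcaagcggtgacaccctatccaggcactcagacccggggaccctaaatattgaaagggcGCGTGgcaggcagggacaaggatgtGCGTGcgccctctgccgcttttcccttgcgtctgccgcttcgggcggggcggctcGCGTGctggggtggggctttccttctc
Tiparp: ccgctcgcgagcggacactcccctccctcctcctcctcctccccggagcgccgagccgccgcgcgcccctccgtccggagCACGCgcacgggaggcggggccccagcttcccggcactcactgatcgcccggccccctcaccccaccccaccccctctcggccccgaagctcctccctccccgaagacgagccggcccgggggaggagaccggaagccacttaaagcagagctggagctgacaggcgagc
The core begins 54 bases before the start of Cyp1a1, 76 before that of Cyp1b1, 107, 82 and 27 before that of Ahrr and 170 before that of Tiparp. GCGTG, searched on both strands, is a common string. In 300-base windows around the start sites it stood in 32.4% of all 32851 windows and in 48.1% of those of genes tested here, against 46.8% of the windows of genes called higher and 40.0% of those called lower. Of the AhR battery, 10 of the 12 tested genes had a window and 6 of them held it. It also stood in windows of all 11 E-box and D-box clock genes that had one, and of 4 of 6 genes of the BMAL1 arm.

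Beyond the battery, calls among detoxification genes went in both directions. Of 21 glutathione S-transferases 2 were called higher (9.52%, against 2.95% of all genes) and 2 lower, of 19 glucuronosyl- and sulfotransferase genes 3 higher (15.8%) and 2 lower, of 28 CYP2 to CYP4 enzymes 3 higher (10.7%), of 11 drug efflux transporters 1 higher and 1 lower, and of 20 NRF2 antioxidant genes Nqo1 alone. Sult1a1, a sulfotransferase of phenols, was at 141, 204 and 176 CPM in vehicle mice and at 81.0, 47.6 and 76.0 CPM at 30 μg/kg, and Sult1c2 was at 22.7, 24.3 and 27.2 CPM and at 16.3, 13.9 and 14.4 CPM. Neither gene's groups overlapped, and the log2 fold changes were -1.35 and -0.74 (adjusted p of 1.07e-05 and 0.000802). Both were also lower than at 3 μg/kg, by -1.31 and -1.02. In the opposite direction Ugt1a7c rose by 0.81 and Papss2, which makes the sulfate donor, by 0.66. Cyp4f14, a fatty acid hydroxylase, was at 126, 164 and 125 CPM and at 335, 285 and 257 CPM (1.08, adjusted p = 0.00047). With the index term Cyp4f14 was not called. The only calls of these lists with that term were 1 rise among glutathione S-transferases and 2 falls among glucuronosyl- and sulfotransferase genes. Cyp2e1 (3.72, adjusted p = 0.00254) was at 0.787, 1.90 and 3.44 CPM and at 3.96, 24.7 and 52.8 CPM, so that mouse 65 lay near the vehicle mice. It was not called with the index term (adjusted p = 0.205), and the 15 mice up to 0.3 μg/kg reached 17.6 CPM. The adipocyte gene Cidec had the same order, at 9.92, 26.9 and 45.8 CPM in mice 65, 66 and 67, and the part of such cells in the difference was not tested.

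Pcdh17 and Acta1 were a fall and a rise of over 4-fold against vehicle and against 3 μg/kg. Pcdh17 (ENSMUSG00000035566), a protocadherin of cell adhesion on chromosome 14 from 84443563 to 84539002 (GRCm38), was at 34.7, 33.4 and 33.2 CPM in vehicle mice and at 1.37, 0.92 and 0.862 CPM at 30 μg/kg. Acta1 (ENSMUSG00000031972), an actin of striated muscle on chromosome 8 from 123891769 to 123894751, was at 2.56, 4.43 and 4.52 CPM and at 116, 162 and 147 CPM. Its near-identical actin paralogs may exchange reads with it. Both also differed from 3 μg/kg, Pcdh17 by -3.18 (adjusted p = 1.05e-08) and Acta1 by 2.96 (adjusted p = 1.05e-08).

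Other genes called both against vehicle and against 3 μg/kg, chosen here after their values were seen, were at like levels in the 3 treated mice. Wfikkn2, a secreted inhibitor of growth factors of the myostatin kind, was at 1.18, 1.16 and 1.18 CPM in vehicle mice and at 12.4, 10.4 and 11.3 CPM (log2 fold change 3.27, and 2.09 against 3 μg/kg). Fndc5, the precursor of irisin, was at 14.6, 8.33 and 9.72 CPM and at 2.23, 1.25 and 2.24 CPM (-2.5, and -1.48 against 3 μg/kg). Sstr1, a receptor for somatostatin, fell by 1.58 and the urea cycle enzyme Otc by 1.34 on the log2 scale. Cyfip2, a regulator of actin assembly, and the extracellular superoxide dismutase Sod3 rose by 2.74 and 2.33. The largest rises and falls with the fewest counts were less even. Enpp7, an intestinal sphingomyelinase, had 1 count over the vehicle mice and 89 at 30 μg/kg, at 0.431, 5.19 and 1.81 CPM (ratio 71.5, counting interval 12.5 to 2860). St8sia5, a sialyltransferase, was at 7.08, 3.16 and 1.87 CPM in vehicle mice and at 0.431, 0 and 0 CPM (adjusted p = 0.0479), within the 0 to 11.1 CPM of the 15 mice up to 0.3 μg/kg.

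**Figure D2:**
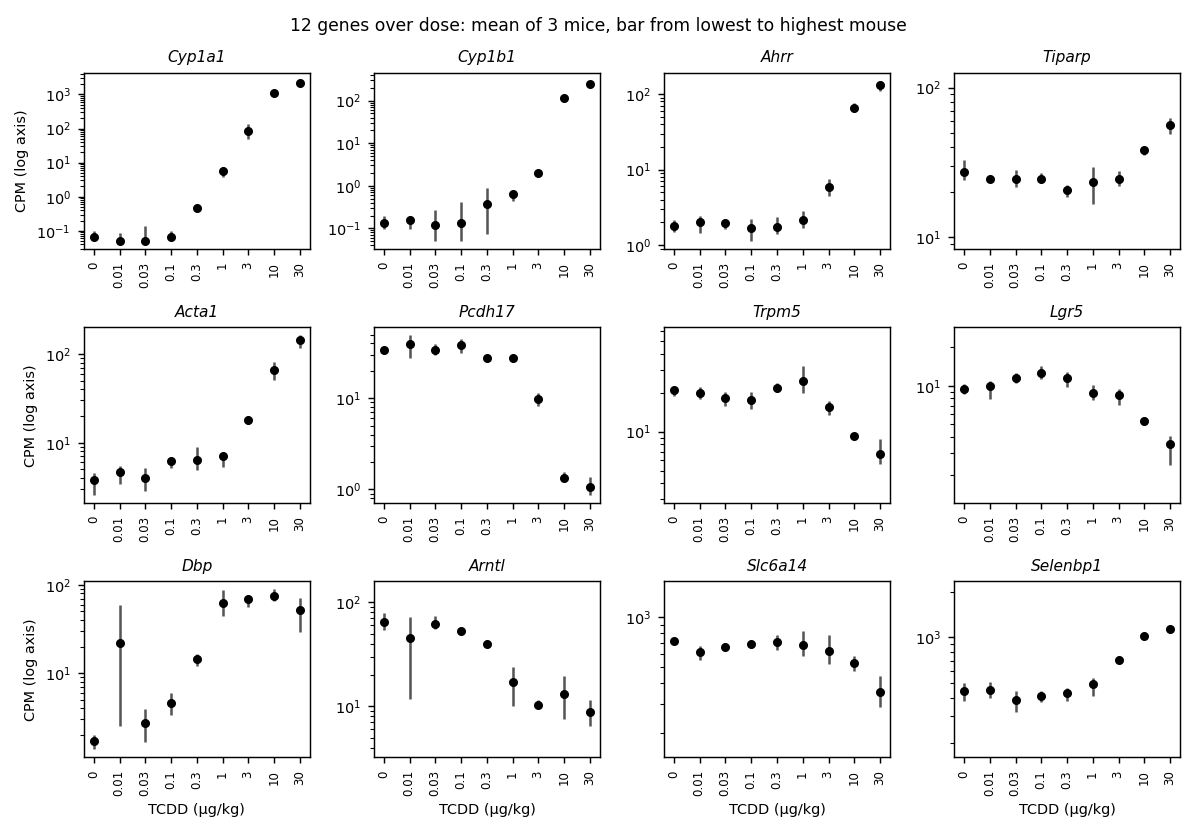
Levels of 12 genes (y axes, CPM on log axes that differ between panels) over the dose of TCDD (x axes, μg/kg), as the mean of 3 mice with a bar from the lowest to the highest mouse, and with mice at 0 counts drawn at 0.05 CPM. Cyp1b1, Ahrr and Acta1 rise and Pcdh17 and Lgr5 fall up to 30 μg/kg, whereas Dbp and Arntl lie at similar levels from 1 to 30 μg/kg.

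Clock genes of the E-box and D-box arm were higher at 30 μg/kg, and most of the BMAL1 arm was lower. In this loop BMAL1 (the product of Arntl) and CLOCK act through E-boxes, whose letters are CACGTG, on the Per, Cry and Nr1d genes, which in turn repress them. All 14 tested genes of the E-box and D-box list were called higher, against 2.95% of all genes, with a median log2 fold change of 2.05. All 14 lay wholly above the vehicle mice, as did 14.5% of all genes. Dbp, a D-box activator, was at 1.77, 2.00 and 1.37 CPM in vehicle mice and at 71.5, 29.4 and 55.9 CPM (4.93 ± 0.84, adjusted p = 0.000683). Per2, a repressor of the loop, was at 17.1, 11.8 and 17.3 CPM and at 136, 121 and 113 CPM (3.00 ± 0.43, adjusted p = 0.000125). Tef, another D-box activator, was at 19.4, 22.1 and 17.6 CPM and at 178, 188 and 184 CPM (3.22 ± 0.47, adjusted p = 0.000142). In each case the lowest treated mouse was far above the highest vehicle mouse. Ciart, Hlf and Per3 rose by 4.07, 3.47 and 2.32 on the log2 scale, and Bhlhe40 and Wee1, the smallest changes of the list, by 0.63 and 0.71.

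Of 7 genes of the BMAL1 arm, Arntl, Npas2, Nfil3 and Clock were called lower (57.1%, against 3.21% of all genes) and 1 was called higher. Of the 7, 5 had a log2 fold change below 0. Arntl was at 79.1, 60.8 and 54.7 CPM in vehicle mice and at 8.92, 11.4 and 6.47 CPM (-2.86 ± 0.42, adjusted p = 0.000142). Npas2, a relative of CLOCK, was at 89.3, 86.4 and 75.3 CPM and at 18, 20.2 and 17.2 CPM (-2.18 ± 0.30, adjusted p = 6.75e-05). None of the 14 E-box and D-box genes was called against 3 μg/kg. The summed level of those 14 was 358 to 374 CPM in vehicle mice, 1032 to 1197 CPM at 3 μg/kg and 1155 to 1279 CPM at 30 μg/kg, and 1 of the mice at 0.01 μg/kg had 60.0 CPM of Dbp, as high as treated mice. For the 7 genes of the BMAL1 arm the summed level was 408 to 469 CPM in vehicle mice and 282 to 344 CPM at 30 μg/kg. It was lower still at 3 μg/kg, at 220 to 261 CPM, and ran from 252 to 469 CPM over the 15 mice up to 0.3 μg/kg. The hour at which each mouse was taken is not given in the sources used here.

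Ciart and Tef are shown as members whose E-box lies in the 250 bases before the start (RefSeq, GRCm38.p6), with CACGTG in capitals. Ciart is at chr3:95882229-95882478 on the minus strand and Tef at chr15:81811164-81811413 on the plus strand.
Ciart: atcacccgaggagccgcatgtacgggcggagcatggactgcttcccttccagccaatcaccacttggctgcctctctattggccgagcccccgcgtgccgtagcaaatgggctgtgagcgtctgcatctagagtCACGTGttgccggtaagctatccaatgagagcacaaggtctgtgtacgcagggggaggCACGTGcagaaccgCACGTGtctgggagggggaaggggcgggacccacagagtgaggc
Tef: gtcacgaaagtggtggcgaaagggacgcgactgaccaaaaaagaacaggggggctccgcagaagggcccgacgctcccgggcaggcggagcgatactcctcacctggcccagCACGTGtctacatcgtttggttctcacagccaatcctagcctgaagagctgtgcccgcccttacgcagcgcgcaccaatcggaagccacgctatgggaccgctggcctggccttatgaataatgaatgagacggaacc
The E-box begins 116, 58 and 44 bases before the start of Ciart and 138 before that of Tef. It stood in 7.15% of all 300-base windows and in 9.45% of those of genes tested, and in the windows of 4 of the 11 genes of the list that had one. It reads the same on both strands.

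Of the 59 lists, the tuft cell list had the largest share of tested members called lower (73.1%, against 3.21% of all genes). Tuft cells are chemosensory cells that taste the gut content through a TRPM5 pathway, depend on the factor POU2F3 and release leukotrienes and prostaglandins. Of 26 tested genes 19 were called lower and none higher, the median log2 fold change was -1.45, and 23 lay wholly below the vehicle mice, as did 15.2% of all genes. Dclk1 (ENSMUSG00000027797), a kinase that marks these cells, was at 38.8, 35.4 and 44 CPM in vehicle mice and at 16.3, 8.61 and 14.1 CPM at 30 μg/kg (-1.60 ± 0.17, adjusted p = 4.98e-06). Trpm5, the cation channel, was at 22.7, 19 and 21.4 CPM and at 8.85, 5.60 and 5.69 CPM (-1.64 ± 0.18, adjusted p = 4.98e-06). Pou2f3 was at 2.26, 3.06 and 2.45 CPM and at 0.503, 0.92 and 1.38 CPM (-1.48 ± 0.38, adjusted p = 0.0157), and was not called without vehicle mouse 3 or without mouse 65. The highest treated mouse was below the lowest vehicle mouse for all of these genes.

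Falls were called in each branch of the list. In the taste pathway, the G protein subunit Gnat3 was at 3.94, 2.42 and 3.44 CPM and at 1.08, 0.0836 and 0.259 CPM, and the phospholipase Plcb2 fell by 1.54 on the log2 scale. Of the eicosanoid enzymes, Alox5, Ltc4s and Hpgds fell by 1.42, 1.72 and 1.28, but Ltc4s was not called without mouse 66 and Hpgds not without vehicle mouse 2 or mouse 66 or 67. In the same pathway Ptgs1, at 6.99, 6.11 and 7.26 CPM and at 10.0, 6.94 and 15.9 CPM, was not called. Of the signalling genes, the receptor Il17rb fell by 1.56, the kinase Matk by 1.61, the regulator Rgs13 by 2.32 and Sh2d6 by 1.71. Avil, which bundles actin in the tuft, fell by 1.07. Some of the genes, such as Vav1 and Alox5, are also used by leukocytes. The medians of the leukocyte lists were -0.15 for 26 T cell genes with none called, -0.35 for 14 B cell genes with Spib called lower, 0.12 for 26 macrophage genes with no fall called, and -0.67 for 6 granulocyte and mast cell genes (-0.18 without vehicle mouse 2). In the last list 5 of 6 were below 0, and Siglecf, which the tuft cell list also holds, was called lower against vehicle (-1.24, adjusted p = 0.00659) and against 3 μg/kg (-1.25, adjusted p = 0.0324). The part of leukocytes in the falls was not tested.

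The summed level of the 26 genes was 193, 168 and 191 CPM in vehicle mice, 151 to 204 CPM over the 15 mice up to 0.3 μg/kg, 125 to 149 CPM at 3 μg/kg, and 90, 65.4 and 87.7 CPM in mice 65, 66 and 67. Within index set 2, 8 of the genes were called lower at 30 than at 3 μg/kg (median -1.04), with Dclk1 at -1.19 (adjusted p = 0.000541) and Trpm5 at -1.21 (adjusted p = 0.000708). With the index term 13 were called lower and the median was -1.59. With any single mouse of the 6 left out, 16 to 19 were called lower, and 1 was called higher without mouse 66. In such bulk RNA fewer cells of a type and less RNA per cell cannot be told apart, which holds for every cell type below.

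**Figure D3:**
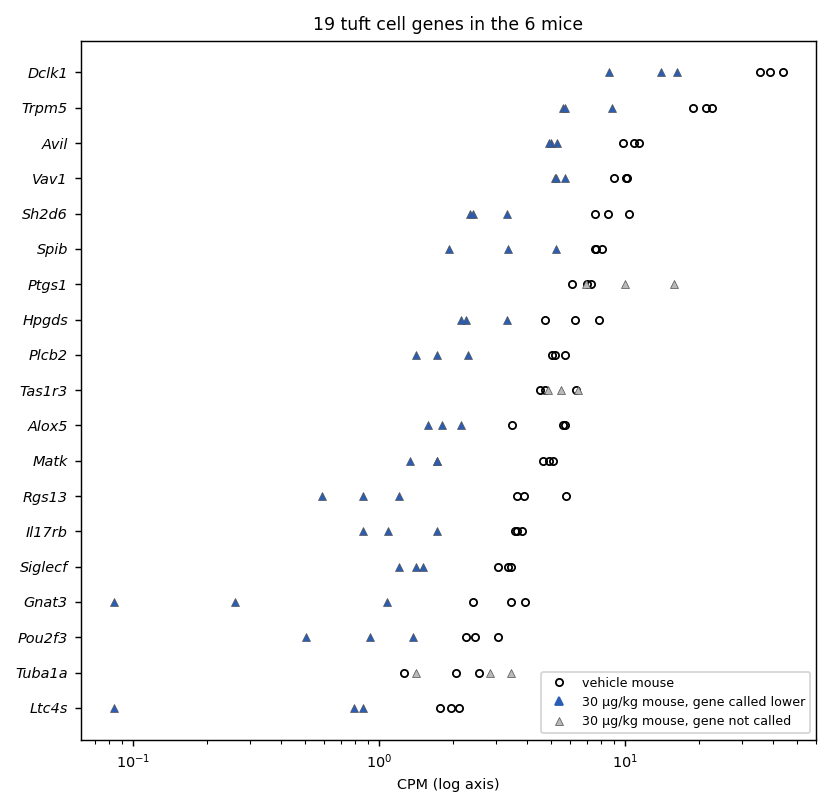
Levels of 19 of the 26 tested tuft cell genes, those named in the text, (x axis, CPM on a log axis) in each of the 6 mice, with vehicle mice as open circles and mice at 30 μg/kg as triangles that are filled in blue where the gene was called lower. For Dclk1 the treated mice sit between 8.61 and 16.3 CPM and the vehicle mice between 35.4 and 44 CPM, and the points of Ptgs1, Tas1r3 and Tuba1a overlap.

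Of 32 goblet cell and mucus genes 3 were called higher (9.38%, against 2.95% of all genes) and 2 lower (6.25%, against 3.21%), with a median of 0.16. Muc2 was at 31700, 36000 and 40000 CPM and at 31200, 33000 and 39900 CPM. Zg16, a lectin that keeps bacteria off the epithelium, was at 753, 719 and 535 CPM in vehicle mice and at 1380, 1420 and 1160 CPM (0.98, adjusted p = 0.00149). Atoh1, the factor of the secretory lineage, was at 70.7, 76.8 and 89.7 CPM and at 142, 102 and 137 CPM (0.68, adjusted p = 0.02). Both were higher in each treated mouse than in all vehicle mice, but Atoh1 was not called without vehicle mouse 2 or 3, or without mouse 65 or 67. With the index term no gene of the goblet cell list was called, neither Zg16 nor Atoh1. Of 32 enteroendocrine genes Scg2 and Cpe were called higher, and none was called without vehicle mouse 2 or 3, or without mouse 65 or 67.

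Some secreted proteins of the crypt base fell. Ang4, a bactericidal ribonuclease, was at 246, 164 and 368 CPM in vehicle mice and at 14, 2.93 and 4.22 CPM (-5.17 ± 0.77, adjusted p = 0.000162). Mptx1, a pentraxin, was at 1420, 851 and 1190 CPM and at 100, 14.7 and 31.9 CPM (-4.55 ± 0.95, adjusted p = 0.00374). The lectin Itln1 and the resistin-like Retnlb fell by 2.83 and 1.96, and the vehicle values of Retnlb, 130, 70.2 and 270 CPM, were themselves wide apart. Retnlb was called only in the full set and without vehicle mouse 3, and Itln1 was not called without vehicle mouse 4 or without mouse 65 or 67. Ang4 and Mptx1 have close paralogs whose reads may be exchanged. Of 13 deep crypt secretory genes these 4 were called lower (30.8%, against 3.21% of all genes), and 1 was called with the index term. In the list 4 genes were above 0 and the median was -0.25. Of 23 antimicrobial genes 6 were lower (26.1%, against 3.21% of all genes), the same 4 with Reg3a and Pigr, and Zg16 was higher. Pigr, the receptor that carries IgA into the lumen, was at 4010, 3410 and 4230 CPM and at 2580, 1990 and 2100 CPM (-0.80, adjusted p = 0.000481). None of the antimicrobial genes was called against 3 μg/kg, and 3 falls in place of 6 were called without vehicle mouse 4, without mouse 65 or without mouse 67. With the index term 2 of the falls and no rise were called.

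Among crypt stem cell genes Lgr5 (ENSMUSG00000020140), the receptor that marks the stem cells, was at 8.66, 10.3 and 9.13 CPM in vehicle mice and at 4.10, 2.43 and 4.05 CPM (-1.40 ± 0.19, adjusted p = 6.05e-05), and it was lower than at 3 μg/kg as well (-1.27, adjusted p = 0.000649). The Wnt target Axin2 was at 60, 65 and 55.8 CPM and at 41.1, 31.9 and 38.9 CPM (-0.69, adjusted p = 0.00246), and Sox9 and Rgmb fell by 0.69 and 0.66 but were not called without mouse 66. These were the 4 falls among 26 stem cell genes (15.4%, against 3.21% of all genes). All 4 were among the 6 genes of the list below the range of the 15 mice up to 0.3 μg/kg, where 2.64% of all genes lay. The Wnt inhibitor Nkd1 was called higher (1.29) but not without vehicle mouse 3 or 4, or without mouse 65 or 67. Lgr5 was the 1 fall called with the index term. Sox4, a further crypt factor outside the list chosen after its values were seen, was at 57.6, 54.1 and 60.7 CPM and at 37.0, 30.3 and 38.4 CPM (-0.71) and was also lower than at 3 μg/kg.

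Of 36 mitosis genes 11 were called lower (30.6%, against 3.21% of all genes) and all 36 had a log2 fold change below 0, with a median of -0.51. In 24 the treated mice lay wholly below the vehicle mice, as did 15.2% of all genes. Mki67, the proliferation marker, was at 209, 182 and 232 CPM in vehicle mice and at 115, 85.1 and 99.0 CPM (-1.06 ± 0.24, adjusted p = 0.00644). The kinetochore genes Cenpe and Cenpf fell by 1.36 and 1.12, and the condensin subunit Ncapg by 1.10. In contrast 1 of 35 DNA replication genes was called, the cell cycle factor E2f2 (-1.20, adjusted p = 0.00431), and the list's median was -0.11. E2f2 was not called with the index term. Mouse 66 had the highest level of the 3 treated mice in 30 of the 35 replication genes. With any mouse other than 66 left out, 4 or 5 mitosis genes were called in place of 11, and with the index term none was called and the median was -0.02. Against 3 μg/kg the median was -0.63 and 1 gene was called lower. The summed level at 30 μg/kg (610, 705 and 589 CPM) lay just below the 706 to 1480 CPM of the 15 mice up to 0.3 μg/kg.

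**Figure D4:**
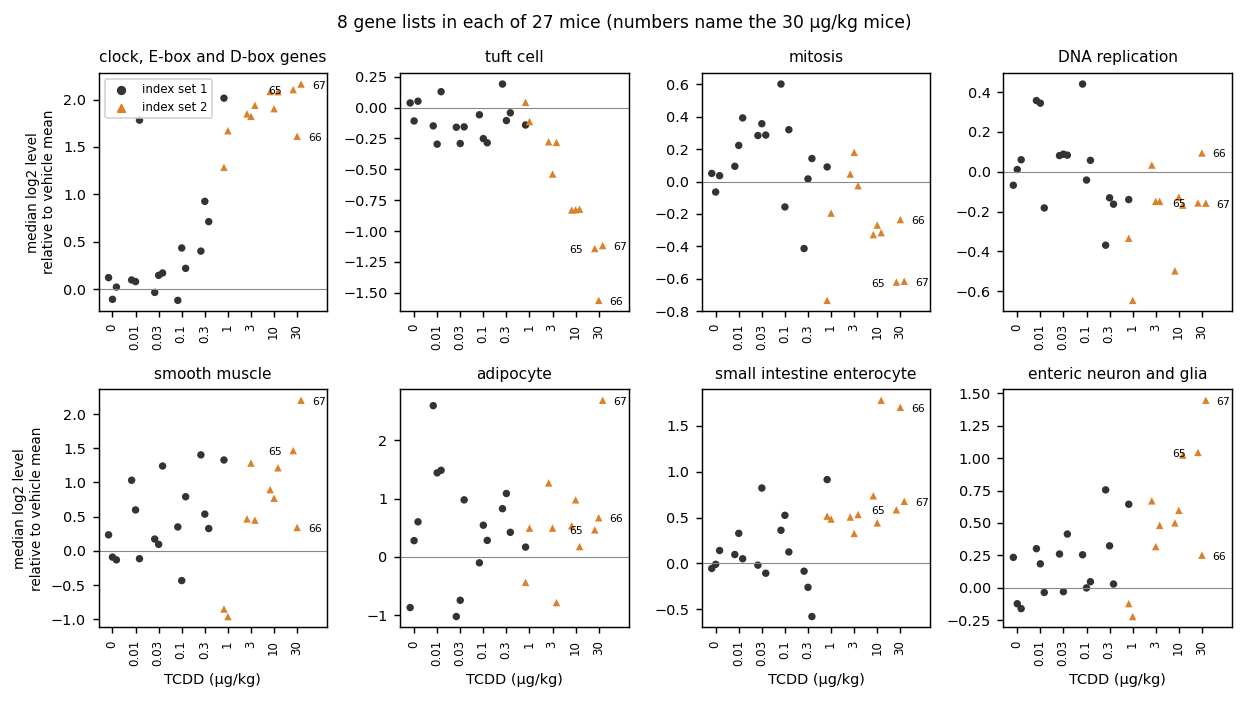
Median log2 level of the tested members of 8 lists relative to the vehicle mean (y axes, scales differ) for each of the 27 mice over the dose of TCDD (x axes, μg/kg), with the index set as the symbol and the mice at 30 μg/kg numbered. Mouse 67 is highest of all in the smooth muscle list at 2.20, and in the adipocyte list it is at 2.68 beside a mouse at 0.01 μg/kg at 2.59. Mouse 66 is at 1.70 in the small intestine enterocyte list beside a mouse at 10 μg/kg at 1.78, whereas all 3 treated mice lie at -1.12 or lower in the tuft cell list.

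Of 40 colonocyte genes 4 were called higher (10.0%, against 2.95% of all genes) and 1 lower (median 0.11). Selenbp1 (ENSMUSG00000068874), a methanethiol oxidase that breaks down a sulfur gas made by gut bacteria, was at 377, 496 and 446 CPM in vehicle mice and at 1170, 1120 and 1120 CPM (1.37 ± 0.12, adjusted p = 2.37e-07). The fatty acid carrier Fabp2 was at 135, 142 and 138 CPM and at 289, 362 and 305 CPM (1.21, adjusted p = 6.05e-05). Each of the treated mice was above all 15 mice up to 0.3 μg/kg for these genes, and Selenbp1 was also higher than at 3 μg/kg (0.68, adjusted p = 0.00568). Among genes of salt transport the sodium-proton exchanger Slc9a3 rose by 0.86 and Hsd11b2, which shields the mineralocorticoid receptor from cortisol-like hormones, by 1.02, and with the anion channel Best2 (1.54) they were among the 4 calls of 34 ion transport genes, although Best2 was not called with any of the 6 mice left out or with the index term.

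Nutrient transporters split, with 6 of 32 called higher and 6 lower (18.8% each, against 2.95% and 3.21% of all genes). Slc6a14, a carrier of neutral and cationic amino acids, was at 699, 708 and 751 CPM in vehicle mice and at 440, 331 and 286 CPM (-1.03 ± 0.15, adjusted p = 0.000142). Slc5a8, which takes up butyrate and other short-chain fatty acids, was at 532, 318 and 344 CPM and at 262, 139 and 151 CPM (-1.11, adjusted p = 0.0028). Slc40a1, the iron exporter ferroportin, was at 238, 313 and 309 CPM and at 158, 144 and 117 CPM (-1.04, adjusted p = 0.000988). Treated and vehicle mice did not overlap in any of these 3 genes. The iron importer Slc11a2 fell by 0.59, the manganese exporter Slc30a10 by 1.24 and the lactate exporter Slc16a3 by 1.07. Slc30a10 was called with vehicle mouse 2 left out but with no other mouse left out, Slc11a2 not without vehicle mouse 2 or 4 or mouse 67, and Slc16a3 not without vehicle mouse 2 or mouse 66 or 67. Without mouse 67, 3 of the 6 falls of the list were called. The amino acid carriers Slc6a19, Slc6a20a, Slc3a1 and Slc43a2 and the sugar carriers Slc2a5 and Slc2a2 were the 6 rises. With the index term 2 rises and 2 falls of the list were called. Of these 12 genes Slc6a14 (-0.82, adjusted p = 0.00661) and Slc6a20a (1.38, adjusted p = 0.0168) were also called against 3 μg/kg.

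Among 20 junction genes Cldn8, a sealing claudin of the distal gut, was at 111, 75.5 and 74.8 CPM in vehicle mice and at 13.4, 20.7 and 13.1 CPM (-2.47 ± 0.33, adjusted p = 6.05e-05). Cldn3 rose by 0.61 (adjusted p = 0.000189) from 358, 389 and 374 CPM to 513, 640 and 551 CPM, though not without vehicle mouse 2 or without mouse 66, and Jam3, a low gene also used by vessels, was the only other call. Of 30 factors of intestinal identity Hnf4g fell from 46.1, 48.9 and 44.3 CPM to 22.4, 19.9 and 22.4 CPM (-1.10, adjusted p = 0.000296) and the vitamin D receptor Vdr rose from 477, 495 and 455 CPM to 656, 793 and 785 CPM (0.65, adjusted p = 0.000254). None of 10 distal and 13 proximal Hox genes, which mark position along the gut, was called. However, all 13 proximal genes were below 0 (median -0.38), and 3 of them lay wholly below the vehicle mice, as did 15.2% of all genes. Of the distal genes 6 were above 0 and 4 below (median 0.07). A difference in position between the groups was not tested.

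Of 21 tested genes typical of small intestinal enterocytes 11 were called higher (52.4%, against 2.95% of all genes, median 1.10). Among the treated mice 19 of the 21 were highest in mouse 66. Lct, the lactase, was at 0.984, 1.16 and 0.393 CPM in vehicle mice and at 2.16, 18.7 and 2.24 CPM in mice 65, 66 and 67. Apoa1, an apolipoprotein, was at 2.56, 2.85 and 7.17 CPM and at 7.26, 41.4 and 13.2 CPM. Alpi, the intestinal alkaline phosphatase, was at 33.9, 33.1 and 35.2 CPM and at 42.1, 124 and 52.8 CPM. In each of these genes mice 65 and 67 lay above the vehicle mice and mouse 66 far above all of them. Slc2a2, the glucose transporter, had 3 counts over the vehicle mice and 80 at 30 μg/kg (ratio 21.4, counting interval 7.07 to 106). The summed level of the list was 691, 767 and 753 CPM in vehicle mice and 736, 1314 and 751 CPM at 30 μg/kg, a sum in which Apob, at 264, 332 and 301 CPM and at 157, 363 and 180 CPM, weighs most. Without mouse 66, 3 members were called higher and 1 lower and the median was 0.56, and 3, 4 and 6 were called higher without vehicle mice 2, 3 and 4. With the index term 2 were called, and against 3 μg/kg 1. The 7 rises among 19 brush border hydrolases (36.8%, against 2.95% of all genes, median 0.29) shared Lct, Anpep and Alpi with this list. None of the 7 was called without mouse 66 or without vehicle mouse 2.

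Of 42 nuclear and mitochondrial genes of oxidative phosphorylation none was called by edgeR, but 41 had a log2 fold change above 0, with a median of 0.26, and 32 lay above all vehicle mice, as did 14.5% of all genes. Their summed level was 5770, 6432 and 6367 CPM in vehicle mice and 7716, 7867 and 7308 CPM at 30 μg/kg. Atp5b, a subunit of ATP synthase, was at 897, 978 and 952 CPM and at 1220, 1270 and 1120 CPM (0.35, adjusted p = 0.00323, under the fold threshold). Against 3 μg/kg the median was -0.00. Of 36 genes of fatty acid oxidation and ketogenesis 33 were above 0 (median 0.31). Fabp1, Fabp2, Acaa2 and Ucp2 were called higher (11.1%, against 2.95% of all genes). Without vehicle mouse 2, without mouse 66 or with the index term 2 of the 36 were called, and without mouse 65, 9 were. The uncoupling protein Ucp2 was at 510, 531 and 545 CPM and at 753, 797 and 873 CPM (0.61, adjusted p = 6.05e-05) and was under the fold threshold without mouse 67. Hexokinase Hk2 was the only fall among 24 genes of glucose metabolism (-1.08, adjusted p = 0.00861), with vehicle mouse 2 at 617 CPM against 338 and 316 CPM in the other vehicle mice, and Pck1 the only rise (0.71).

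Of 24 genes of fatty acid synthesis 12 were above 0 and 12 below (median 0.03). Dgat1 and Dgat2, of triglyceride synthesis, were called higher (8.33%, against 2.95% of all genes), by 0.77 and 1.01. The desaturase Fads1 was called lower (4.17%, against 3.21%), by 0.68. Dgat2 was not called without vehicle mouse 3 or 4 or mouse 66, Fads1 not without these or mouse 65, and with the index term none of the list was called. None of 28 cholesterol genes was called. None of 14 tested genes of cobalamin handling was called, with log2 fold changes from -1.19 to 0.45. At the lower end Cubn, the cobalamin receptor, was at 18.1, 44.7 and 44.4 CPM in vehicle mice and at 17, 9.2 and 20.8 CPM (adjusted p = 0.122), so that vehicle mouse 2 lay within the treated range. In a fit with the level of the Hox genes, which mark position along the gut, as a covariate Cubn was called lower (-1.04, adjusted p = 0.0423). None of 13 propionyl-CoA genes was called either (median 0.03). Kyat1, Psat1, Srm and Cbs made up the 4 rises among 26 genes of polyamine, tryptophan and one-carbon metabolism (15.4%, against 2.95% of all genes). None of the 26 was called without vehicle mouse 3 or 4, 1 without mouse 65 or 67, and 2 without vehicle mouse 2 or mouse 66. The retinol carrier Rbp2 was the single call of 20 bile acid and retinoid genes (1.03, adjusted p = 0.00207).

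Of 29 genes of the unfolded protein response Herpud1, part of the degradation machinery of the endoplasmic reticulum, was called, at 95.7, 78.6 and 100 CPM in vehicle mice and at 157, 178 and 181 CPM (0.91 ± 0.11, adjusted p = 1.87e-05). The chaperone Hspa8 rose by 0.62 among 20 heat shock genes, with the low genes Hspb1 and Hspb8. Of 19 glucocorticoid-responsive genes 5 were called higher (26.3%, against 2.95% of all genes), among them Fkbp5 (0.72) and Tsc22d3 (0.62), and Sult1a1 lower. The rises numbered 2 without vehicle mouse 2 or mouse 66, 3 without vehicle mouse 3 or 4 or mouse 67, and 1 with the index term. Among 21 p53 targets the low death-promoting gene Bbc3 and the stress gene Gadd45g fell by 0.98 and 1.09 and the kinase Plk2 rose by 0.84. No fall of this list was called without vehicle mouse 2 or 4 or without any 1 of the treated mice. Ier3 rose by 1.35 and Nr4a2 fell by 1.51 among 23 immediate early genes, and neither was called with the index term. Of 18 hypoxia genes Hk2 and Adm were called lower, and neither without vehicle mouse 2 or with the index term.

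In the immune lists no member was called among 26 T cell, 17 plasma cell, 10 MHC class II and 20 MHC class I genes, and Spib, which tuft cells also use, was the 1 call of 14 B cell genes. Of 42 interferon-stimulated genes Oas3 and Ifi27l2a were called higher and the median was -0.19, and no rise was called without vehicle mouse 2, without mouse 67 or with the index term. The macrophage and dendritic cell list had 5 of 26 called higher (19.2%, against 2.95% of all genes, median 0.12), namely Gpnmb, C1qc, Mpeg1, Apoe and Lgals3. Gpnmb was at 0.394, 0.316 and 0.491 CPM in vehicle mice and at 2.09, 2.43 and 3.19 CPM (2.64, adjusted p = 0.00574). Lgals3 is also a colonocyte gene, at 860 to 902 CPM in vehicle mice. With single mice left out 2 to 6 members were called, and with the index term 5, with a median of 1.37. Of 37 chemokines, cytokines and receptors Cxcl14 was called higher (1.74), and Ccl20 and Cxcl16, which draw lymphocytes to the epithelium, lower (-2.58 and -1.05). For Ccl20, 1 vehicle mouse at 6.2 CPM carried most of the difference. None of the 37 was called with the index term.

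Some genes of the tissue beneath the epithelium were called higher at 30 μg/kg, and their levels differed widely between the 3 mice. Myh11, the myosin of smooth muscle, was at 42.5, 27.1 and 21.9 CPM in vehicle mice and at 135, 45.7 and 335 CPM in mice 65, 66 and 67, and was not called (2.49 ± 0.86, adjusted p = 0.0614). Of 26 smooth muscle genes 4 were called higher (15.4%, against 2.95% of all genes), namely Acta1, Myl9, Tpm2 and Csrp1. All 26 were above 0 with a median of 1.62, and 22 were highest in mouse 67. Their summed level was 669, 615 and 575 CPM in vehicle mice, 563 to 1204 CPM over the 15 mice up to 0.3 μg/kg, and 1264, 939 and 2000.3 CPM at 30 μg/kg. Without mouse 67 (median 0.99) or without vehicle mouse 4, 1 gene was called, and without mouse 66, 10 were. Within index set 2 Acta1 alone was called against 3 μg/kg, and with the index term 19 were called and the median was 3.74. Acta1 did not follow this order, since it was highest in mouse 66.

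The adipocyte list had 7 of 18 called higher (38.9%, against 2.95% of all genes, median 1.66), and 16 of 18 were highest in mouse 67. Among the 7 were the lipid droplet genes Plin4 and Cidec, the fatty acid carrier Fabp4 and the lipase Lipe. Fabp4 was at 0.787, 6.54 and 7.75 CPM in vehicle mice and at 7.19, 13.4 and 64.8 CPM, and without mouse 67 none of the list was called. With the index term none was called either and the median was 1.63, and none was called against 3 μg/kg. No member lay above all 15 mice up to 0.3 μg/kg, whose summed level reached 1274 CPM against 667, 687 and 1572 CPM in mice 65, 66 and 67. Of 46 fibroblast and matrix genes 5 were called higher (10.9%, against 2.95% of all genes, median 0.62), and none without mouse 67 (median 0.32) or without vehicle mouse 3. Dcn, a matrix proteoglycan, was at 8.76, 9.59 and 9.82 CPM and at 22.6, 22.0 and 35.9 CPM (1.51, adjusted p = 0.0398) and was called with mouse 65 left out but with no other mouse left out.

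Of 20 endothelial genes 8 were called higher (40.0%, against 2.95% of all genes, median 0.95), with 3 called and a median of 0.57 without mouse 67. Cdh5, the cadherin of vessels, was at 0.886, 1.37 and 0.491 CPM in vehicle mice and at 3.81, 3.26 and 6.90 CPM (2.34, adjusted p = 0.000589). Ptprb, an endothelial phosphatase outside the list chosen after its values were seen, was at 8.17, 6.64 and 6.09 CPM and at 15, 12.1 and 21.6 CPM and was higher than at 3 μg/kg too (1.11, adjusted p = 0.0139). Of 17 genes of enteric neurons and glia 9 were called higher (52.9%, against 2.95% of all genes, median 1.13), and 4 to 9 with any single mouse left out. Calb2, a calcium-binding protein of enteric neurons, was at 0.394, 0.211 and 0.196 CPM and at 3.24, 1.51 and 6.98 CPM (3.81, adjusted p = 0.00318), and Ret, the receptor of the neural lineage, was at 4.62, 3.69 and 4.02 CPM and at 8.63, 7.02 and 11.5 CPM (1.13, adjusted p = 0.00216). All of these were lowest in mouse 66 among the treated mice, the mouse with the least smooth muscle signal. The summed level of the smooth muscle genes moved with them, and its part in these rises was not tested. Of 16 pancreatic acinar genes Clps was called lower, with vehicle mouse 3 at 115 CPM against 9.94 and 11.6 CPM in the other vehicle mice, and Zg16, which the colon makes itself, higher. Their summed level was 847, 6128 and 596 CPM in vehicle mice and 1464, 1616 and 1207 CPM at 30 μg/kg, and the list's median log2 fold change was -4.83, and 4.35 without vehicle mouse 3.

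Of 39 genes of Wnt, Notch and BMP signalling 5 were called higher (12.8%, against 2.95% of all genes) and the Notch ligand Dll4 lower (-0.83, adjusted p = 0.00432). The growth factor Ereg was at 5.51, 3.48 and 4.61 CPM in vehicle mice and at 13.8, 8.70 and 8.02 CPM (1.17, adjusted p = 0.0329), above all 15 mice up to 0.3 μg/kg, and was called without mouse 66 or 67 but with no other mouse left out. Chrdl1, Dkk3 and Bmp5, secreted signals that mesenchymal cells make, also rose, and they were lowest in mouse 66 among the treated mice, as the summed smooth muscle level was. Without vehicle mouse 2 or 3, or without mouse 67, 1 rise was called in place of 5.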

How the data were processed

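RNA-seq of colonic epithelium scrapings from 27 mice was analysed, with the 3 mice at 30 μg/kg TCDD and the 3 vehicle mice as the comparison described. The authors deposited raw counts, whole numbers of reads per gene that are not normalized, for each mouse in the layout of HTSeq-count. The submitters' processing notes name FastQC 0.11.3, Trimmomatic 0.33, TopHat2 2.1.0, SAMtools 1.2.0, HTSeq 0.6.1 and DESeq with the GRCm38 build, and the strand setting of the counting is not given in the sources used here, so overlapping and antisense genes cannot be told apart. Of 46078 gene identifiers 45143 matched a symbol. Closing lines without a gene were not used. Reads in no feature made up 31.1 to 32.1% of the 6 tables.

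Genes were filtered with filterByExpr of edgeR (4.0.16, in R 4.3.3) at a minimum count of 10, which left 16496, and TMM factors and glmQLFit used all 27 mice, which share 1 estimate of the spread. Groups were compared by the quasi-likelihood test of edgeR, and p-values were adjusted by Benjamini-Hochberg across the whole table. A gene is called where the adjusted p is under 0.05 and the fold change at least 1.5. CPM are counts scaled to library size after TMM. They are not per length, so levels are compared between mice and not between genes. Values are listed in the order of mice 2, 3 and 4 and of mice 65, 66 and 67. The members and gene lists (59 lists, 1542 of 1550 symbols matched) were chosen with earlier results of these data known, so their counts and medians are descriptions. Rules took the whole AhR battery, the 10 largest rises and falls among genes averaging 1 CPM or more whose groups do not overlap, up to 5 called members of each list with its most abundant member, and the cobalamin genes. Further members of the lists, and genes outside them, were named after their values were seen. Some genes that the rules take are not reported here. Index sets were read from the barcodes of the libraries. Alternatives were RLE size factors, DESeq2 (1.42.0), limma voom (3.58.1), no filter (30487 genes), only the 6 mice (14934 genes), a term for the index set, a score of 25 Hox genes as a covariate, the threshold, and each mouse left out. The test was checked on simulated counts of 16234 genes with 200 changed, all averaging over 1 CPM, and called 6 of the others. These counts held no index set and no shift in cell makeup. Gene positions are from GENCODE M21 on GRCm38 and promoter windows, 32851 in all, from RefSeq on GRCm38.p6.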

Additional observations from a re-analysis of the deposited data

How the results depend on the processing

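Of 1016 genes called against vehicle (486 higher and 530 lower), RLE size factors gave 1013, DESeq2 1123, limma voom 841, no filter on low counts 1164, the Hox score as a covariate 1272 and the term for the index set 731. A fit of only the 6 mice gave 662 (296 higher), the adjusted p alone 1818 (990 higher and 828 lower) and a posterior probability of at least 0.8 from limma voom 218 (111 higher and 107 lower). With 1 mouse left out the counts ran from 590 to 1084 in all, from 288 to 524 higher and from 278 to 560 lower. They fell by over 1.5 times without vehicle mouse 2, without vehicle mouse 4 and without mouse 67, and for falls also without mouse 66 (278). Against 3 μg/kg 76 genes were called, 32 with only the 6 mice, 149 by DESeq2, and 33 to 142 with 1 mouse left out, where the lowest count was without mouse 49 at 3 μg/kg and the highest without mouse 65. With any other of these mice left out 40 to 45 were called. The cause of these shifts was not tested.

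Among medians of lists, that of the clock genes with E-boxes was 1.79 with only the 6 mice and 2.39 with the index term. The index term gave -1.03 for the BMAL1 arm, 0.25 for DNA replication, -0.02 for mitosis, 0.53 for MHC class II, 1.37 for macrophages, 0.60 for B cells (-0.35 without the term), 3.74 for smooth muscle and 1.69 for fibroblasts, and no filter gave -0.26 for antimicrobial proteins. With 1 mouse left out the ranges were 0.73 to 1.09 for the AhR battery, -1.02 to -0.59 for the BMAL1 arm, -1.02 to -0.52 for antimicrobial proteins, -0.25 to -0.02 for DNA replication, -0.33 to -0.04 for interferon-stimulated genes and 0.50 to 2.09 for adipocytes. The tuft cell median ran from -1.53 to -1.28. Of 179 genes named in the text, 83 fell below the threshold with the index term, 30 under limma voom and 29 of 171 tested with only the 6 mice. With 1 mouse left out 29 (mouse 65) to 50 (vehicle mouse 2) of them lost the call. The sign changed for Ugt1a6a with the index term (-0.08) and for Muc2, not called, without vehicle mouse 4 (0.03) and without mouse 65 (0.02), in a range of -0.16 to 0.03 with 1 mouse left out.

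No paired analysis was possible because every mouse has a number of its own and vehicle and treated groups have none in common. With 3 mice a group, genes under about 1 CPM rest on few reads. Of the called genes, 41 rises and 36 falls had a mean under 1 CPM. On simulated counts the test recovered 94% of 4-fold and 81% of 2-fold changes, so smaller changes can be missed. In the direct comparison dose and index set cannot be told apart, and the comparison with 3 μg/kg leaves out changes already complete at that dose. Shifts in the cell makeup of a scraping were not measured.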

Other observations

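The genes below lie outside the lists and were chosen after their values were seen. The gasdermin C genes, whose products form pores in epithelial cells, were lower at 30 μg/kg. Gsdmc2 was at 245, 140 and 400 CPM in vehicle mice 2, 3 and 4 and at 62.9, 98.3 and 52.5 CPM in mice 65, 66 and 67 (log2 fold change -1.88, adjusted p = 0.00148). Gsdmc was at 26.4, 11.1 and 25.5 CPM and at 5.75, 6.36 and 3.28 CPM (-2.03, adjusted p = 0.00127), and Gsdmc3 fell by 1.63 (adjusted p = 0.00225). The groups did not overlap in any of these genes. They are close paralogs whose reads the counting may split, and none of them was called against 3 μg/kg. Tlr4, the receptor of bacterial lipopolysaccharide, was at 60.9, 53.8 and 48.8 CPM and at 28.3, 26.7 and 24.1 CPM (-1.05, adjusted p = 6.05e-05). Casp4, the caspase that senses it in the cytosol, was at 57.9, 37.9 and 42.1 CPM and at 21.7, 17.6 and 13.8 CPM (-1.37, adjusted p = 0.000443). Tifa and Tnip3, adaptors of NF-κB signalling, fell by 1.25 and 2.54. The complement gene C3 was at 7.87, 10.9 and 8.83 CPM and at 45.7, 31.7 and 45.3 CPM (2.16, adjusted p = 0.00472), above the 29.2 CPM of the highest of the 15 mice up to 0.3 μg/kg.

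Sh2d7 was at 12.3, 10.2 and 12.0 CPM in vehicle mice and at 4.10, 3.09 and 4.83 CPM at 30 μg/kg (-1.52, adjusted p = 1.07e-05), with a log2 fold change of -1.05 against 3 μg/kg. Pik3r5, a regulatory subunit of a phosphoinositide kinase, was at 16.2, 12.1 and 13.7 CPM and at 3.96, 4.01 and 5.43 CPM (-1.66, adjusted p = 1.61e-05), with a log2 fold change of -1.22 against 3 μg/kg. Among the abundant rises, Pam, which amidates peptides, was at 231, 158 and 179 CPM and at 466, 545 and 480 CPM (1.39, adjusted p = 7.22e-05), and was higher than at 3 μg/kg by 1.14. Tns4 and the ubiquitin ligase Neurl3 rose by 1.26 and 1.11, and in both the treated mice lay above all 15 mice up to 0.3 μg/kg.

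Single vehicle mice carried some of the largest falls. Pla2g4c, a phospholipase, was at 15.4, 7.06 and 136 CPM in vehicle mice and at 1.37, 0.92 and 0.517 CPM at 30 μg/kg, and stayed called with each mouse left out. The trefoil peptide Tff2 was at 0.886, 14.7 and 0.196 CPM and at 0, 0.167 and 0 CPM, a ratio of 93.4 lower with a 95% counting interval of 25.4 to 778, and was not called without vehicle mouse 3 or without mouse 65, 66 or 67.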
